A study of Mus musculus with 12 samples.

Results

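Arc, Bdnf, Nptx2, Homer1, Tiparp, Nr4a1, Nr4a3, Ptgs2, Sik1 and Btg2 are effector genes that neurons switch on when they are active. They were taken by symbol from a table of 21738 distinct gene symbols, in which all 10 were found on 1 row each. The table holds 12 libraries of poly(A) RNA from adult mouse whole cortex, 4 each of the Tet1 genotypes WT, HxD and KO. Tet1 encodes a dioxygenase that oxidises 5-methylcytosine in DNA, and the study's title sets its catalytic functions against its non-catalytic ones. The labels give tissue and genotype alone for each group, so WT is adult cortex of genotype WT, HxD the same tissue of genotype HxD (also the name of the iron-binding motif of TET enzymes), and KO the same tissue of genotype KO. They do not state the strain, sex, exact age, treatment, how the alleles were made, or whether libraries came from separate animals, and the spread behind the p-values may therefore be technical.

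Synaptic input raises calcium in a neuron, and calcium signalling then activates CREB, SRF and MEF2 factors that already sit at activity-induced genes. The first transcripts to appear include transcription factors and also effectors, whose products act directly at the synapse, outside the cell, in signalling or in mRNA turnover. Nr4a1 and Nr4a3, grouped here with the effectors, encode receptors that bind DNA, as transcription factors do. In the cortex these genes are known for following recent experience, wakefulness, stress and handling, and their levels can move within minutes to hours.

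The element through which CREB acts on such genes is the cAMP response element (CRE), with the full form TGACGTCA and the core form TGACG, and the promoters below are shown because they hold it. RefSeq promoter sequences of build GRCm38.p6 were found for 7 of the 10 genes, with 14 start sites, and the 250 bases before each start were searched on both strands. Arc, Nptx2 and Sik1 had no entry. The core CRE was found for 5 of the 7 genes (Bdnf, Btg2, Homer1, Nr4a1 and Nr4a3), where 19.8% of the 27025 genes with RefSeq promoters hold it before at least 1 start. Counted by start it was 5 of 14 against 17.8% of all 32851 starts, since Bdnf alone has 7. Capitals mark the core CRE, read as TGACG or, on the opposite strand, as CGTCA.
Btg2, chr1:134079156-134079405, minus strand: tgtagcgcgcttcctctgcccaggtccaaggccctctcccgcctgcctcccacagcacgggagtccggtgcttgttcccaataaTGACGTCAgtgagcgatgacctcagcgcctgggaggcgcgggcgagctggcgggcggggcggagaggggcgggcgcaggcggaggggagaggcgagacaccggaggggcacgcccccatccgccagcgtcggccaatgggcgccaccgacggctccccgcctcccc
Bdnf, start 3 of 7, chr2:109692186-109692435, plus strand: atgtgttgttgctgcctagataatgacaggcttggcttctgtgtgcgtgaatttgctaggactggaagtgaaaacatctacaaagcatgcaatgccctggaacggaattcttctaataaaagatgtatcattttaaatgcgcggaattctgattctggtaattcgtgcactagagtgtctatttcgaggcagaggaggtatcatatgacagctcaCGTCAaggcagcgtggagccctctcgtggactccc
Nr4a3, chr4:48045055-48045304, plus strand: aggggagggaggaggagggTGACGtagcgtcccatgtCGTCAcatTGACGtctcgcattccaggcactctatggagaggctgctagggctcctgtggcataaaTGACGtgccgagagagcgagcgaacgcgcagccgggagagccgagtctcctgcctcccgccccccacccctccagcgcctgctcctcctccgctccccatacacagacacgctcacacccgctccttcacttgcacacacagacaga
Nr4a1, chr15:101266596-101266845, plus strand: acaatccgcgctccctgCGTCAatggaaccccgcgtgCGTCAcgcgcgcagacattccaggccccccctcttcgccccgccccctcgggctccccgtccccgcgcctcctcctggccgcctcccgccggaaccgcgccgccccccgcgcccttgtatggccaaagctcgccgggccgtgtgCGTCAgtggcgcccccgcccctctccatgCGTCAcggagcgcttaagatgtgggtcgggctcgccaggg

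Btg2 was the single gene of the 7 with the full CRE, which overlaps the core form on both strands and which 1.77% of all genes hold. Nr4a1 and Nr4a3 each held 4 copies of the core form. In Bdnf it lay before 1 of the 7 starts, with its last base 31 bases upstream. Homer1 held 3 copies before the first of its 2 starts. No match was found in these windows of the members for the AP-1 site (TGAGTCA, in 5.16% of all genes), the EGR site (GCGTGGGCG, 0.622%), the NR4A element (NBRE, AAAGGTCA, 1.55%), the TATA box (TATAAA, 14.3%), the E-box (CACGTG, 6.86%), the CArG box (1.62%) or the MEF2 site (3.42%). These are matches of letters in 250 bases, and binding was not measured here.

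Estimated counts summed to between 5791642 and 10915574 per library, and KO held the 2 smallest totals. Levels are given below as CPM, the count of a gene relative to the total of its library, with totals scaled by TMM, a method that sets most genes equal between libraries. Tet1 could not check the genotypes, because it was listed at 0 in all WT and KO libraries and at 1, 0, 63 and 67 counts in HxD 1 to 4. Gapdh, which every cell uses, was also listed at 0 in all 12, so a gene listed at 0 may still have been expressed. Of 10 markers of cortical excitatory neurons, 7 (Slc17a7, Neurod6 and others) had counts in every library. Rorb was listed at 0 in all WT and KO libraries, Foxp2 in all HxD and KO libraries, and Cux2 in 4 libraries. The 10 genes summed to 2538 to 2981 CPM in KO, 2673 to 3684 in HxD and 2896 to 4102 in WT. In whole tissue, fewer cells of a type and less RNA per cell cannot be told apart.

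Arc encodes a cytoskeletal protein of dendrites that removes AMPA receptors from synapses. Its levels were 312, 236, 32.7 and 116 CPM in WT 1 to 4, then 57.3, 629, 205 and 889 in HxD 1 to 4, and 668, 462, 778 and 390.5 in KO 1 to 4. All 4 KO libraries lay above all 4 WT libraries, while HxD ran from near the lowest WT library to above every KO library. Within WT the highest library held 9.54 times the level of the lowest, within HxD 15.5 times, and within KO 1.99 times. The mean in KO was 575 ± 179 CPM (SD, n = 4) against 174 ± 124 in WT, a log2 fold change of 1.72 ± 0.81 (SE) that did not pass edgeR's quasi-likelihood test (adjusted p = 0.542 over 11693 genes). HxD stood at 445 ± 383 CPM, and its difference from WT of 1.36 ± 0.80 was not called either.

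**Figure D1:**
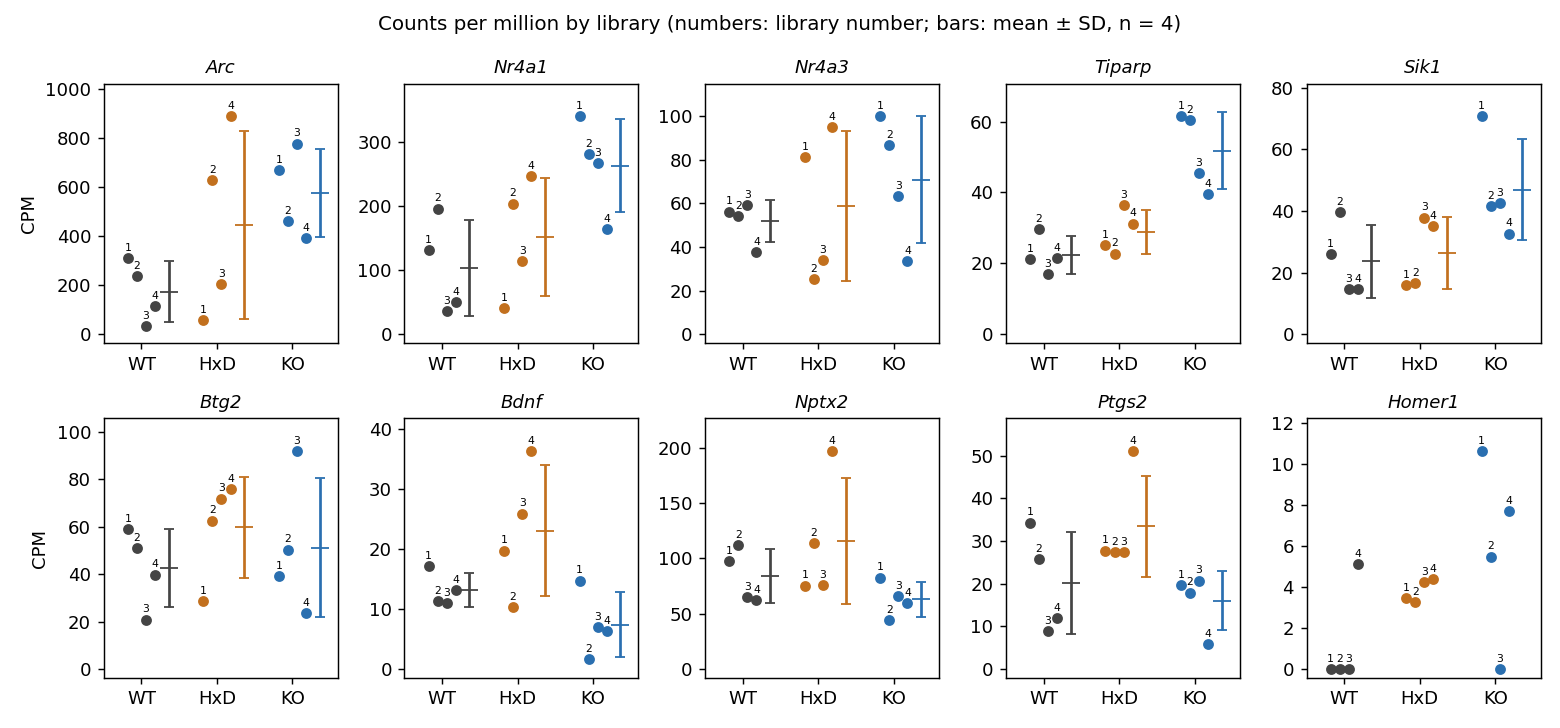
CPM (vertical axis, linear) of each gene in the 4 libraries of WT, HxD and KO (horizontal axis), where each point is 1 library with its number and the bar beside the points is the mean ± SD (n = 4), left out for Homer1 because of its values of 0. Arc and Tiparp in KO sit wholly above WT, and Ptgs2 in KO sits wholly below HxD.

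Nptx2 encodes a secreted pentraxin that gathers AMPA receptors on interneurons. It measured 97.5, 112, 64.8 and 62.2 CPM in WT 1 to 4, 75.5, 114, 76 and 197 in HxD 1 to 4 and 82.55, 44.2, 65.9 and 59.6 in KO 1 to 4. The 3 genotypes overlapped, and HxD 4 alone stood above every WT library by a wide margin. KO against HxD had a log2 fold change of -0.88 ± 0.34 (unadjusted p = 0.0256, adjusted p = 0.356), which moved to -0.49 without HxD 4.

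Homer1 encodes a postsynaptic scaffold, and activity induces a short form of it that displaces the long ones. RefSeq lists 5 curated transcripts for it, and the table gives 1 row for all of them. The row was listed at 0 in WT 1, 2 and 3 and in KO 3, at 51 counts in WT 4, at 32, 25, 36 and 45 in HxD 1 to 4, and at 62, 41 and 45 in KO 1, 2 and 4. Jumps between 0 and 51 or 62 counts within a genotype make this row unfit for a fold change, and none is given. Its edgeR adjusted p was 0.934 between KO and HxD, 0.755 between KO and WT, and 0.999 between HxD and WT.

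Bdnf encodes a secreted neurotrophin that signals through TrkB, the receptor that Ntrk2 encodes. It stood at 17.1, 11.3, 10.9 and 13.1 CPM in WT 1 to 4, at 19.7, 10.3, 25.9 and 36.3 in HxD 1 to 4 and at 14.7, 1.60, 6.95 and 6.32 in KO 1 to 4. Of the KO libraries, 3 lay below every WT and HxD library, and KO 1 lay among them. KO 2 rests on 12 counts and the other KO libraries on at most 86. The log2 fold change was -1.64 ± 0.56 for KO against HxD (unadjusted p = 0.0145, adjusted p = 0.307) and -0.83 ± 0.55 for KO against WT (adjusted p = 0.693). With 12 curated RefSeq transcripts and an antisense gene, Gm45346, over part of its exons in GENCODE M21, the assignment of reads to Bdnf is uncertain.

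Nr4a1 and Nr4a3 encode orphan nuclear receptors that bind DNA without a known hormone. Nr4a1 was measured at 131, 196, 36.3 and 50.02 CPM in WT 1 to 4, at 41.2, 204, 114 and 247 in HxD 1 to 4 and at 341, 282, 267 and 165 in KO 1 to 4. Of the KO libraries, 3 lay above all WT and HxD libraries, and KO 4 lay below WT 2, HxD 2 and HxD 4. The mean of KO was 264 ± 73.1 CPM, beside 152 ± 92.1 in HxD and 104 ± 74.7 in WT (SD, n = 4), and KO against WT gave a log2 fold change of 1.35 ± 0.61 (unadjusted p = 0.05002, adjusted p = 0.525). Nr4a3 behaved otherwise, at 56.2, 54.4, 59.2 and 37.6 CPM in WT 1 to 4, 81.3, 25.35, 34 and 94.9 in HxD 1 to 4, and 100.02, 87.0, 63.3 and 33.65 in KO 1 to 4. Its HxD and KO libraries lay on both sides of WT, and the KO, HxD and WT means of 71, 58.9 and 51.85 CPM differed by less than the spread in HxD or KO. The remaining receptor of the family, Nr4a2, had 72.3 ± 4.56 CPM in KO, 67.1 ± 38.4 in HxD and 79.7 ± 51.7 in WT.

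Tiparp encodes an ADP-ribosyltransferase that represses the aryl hydrocarbon receptor. It showed the clearest separation of the 10 genes, at 21.1, 29.7, 16.9 and 21.45 CPM in WT 1 to 4, 25.2, 22.8, 36.5 and 31.2 in HxD 1 to 4 and 61.5, 60.4, 45.45 and 39.6 in KO 1 to 4. Every KO library lay above every WT and every HxD library, and WT and HxD overlapped. KO held 2.32 times the WT level (log2 fold change 1.21 ± 0.22, 95% interval 0.73 to 1.7) with an edgeR adjusted p of 0.0817, so the gene missed the threshold of 0.05. Its unadjusted p of 2.0e-04 ranked 27 among 11693 genes. Against HxD the KO level was 1.79 times as high (log2 fold change 0.84 ± 0.22, adjusted p = 0.167). The DESeq2 Wald test called both differences, with adjusted p = 9.6e-05 against WT and 0.0187 against HxD, while limma-voom did not, with 0.167 and 0.163. A pseudogene on the other strand, 4931440P22Rik, overlaps a Tiparp exon in GENCODE M21 and held at most 4 counts in any library.

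Sik1 encodes a salt-inducible kinase that restrains CREB by phosphorylating its coactivators. It measured 26, 39.5, 14.7 and 14.5 CPM in WT 1 to 4, 16.0, 16.5, 37.8 and 35.1 in HxD 1 to 4 and 70.7, 41.7, 42.7 and 32.6 in KO 1 to 4. KO 1, 2 and 3 lay above every WT and HxD library, and KO 4 lay among them. The KO level was 1.98 times that of WT (log2 fold change 0.98 ± 0.42, unadjusted p = 0.0384, adjusted p = 0.490). HxD and WT were close in the mean, at 26.4 ± 11.7 and 23.7 ± 11.8 CPM (SD, n = 4).

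Ptgs2 encodes cyclooxygenase-2, which makes prostaglandin precursors and is present in excitatory neurons of the cortex. It was found at 34.3, 25.8, 8.87 and 11.9 CPM in WT 1 to 4, at 27.8, 27.4, 27.4 and 51.1 in HxD 1 to 4 and at 19.7, 17.9, 20.8 and 5.81 in KO 1 to 4. All KO libraries lay below all HxD libraries, and WT overlapped both. The log2 fold change of KO against HxD was -1.06 ± 0.49 (unadjusted p = 0.0551, adjusted p = 0.444). Ptgs1, its constitutive relative, had 13.1 ± 2.52 CPM in KO, 16.3 ± 1.65 in HxD and 26.4 ± 7.502 in WT, and its difference of -1.01 ± 0.21 between KO and WT did not pass (adjusted p = 0.137).

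Btg2 encodes an antiproliferative protein that brings the CCR4-NOT deadenylase to mRNA. It ran from 20.8 to 59.1 CPM in WT, from 28.8 to 75.9 in HxD and from 23.4 to 92.0 in KO, so the groups shared most of their range. Its largest log2 fold change, 0.49 ± 0.45 for HxD against WT, had a 95% interval from -0.52 to 1.49. For Btg2 in KO against WT the interval ran from -0.74 to 1.27, so a doubling in KO lies within what these libraries allow.

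In edgeR's quasi-likelihood test none of the 10 genes passed in any comparison. HxD against WT called 0 of 10, where 0.898% of all 11693 tested genes were called, and 0 of 10 had an unadjusted p below 0.05 beside 4.05%. In KO against WT it called 0 of 10 beside 0.154% of all genes, and 2 of 10 had an unadjusted p below 0.05 beside 9.48%. In KO against HxD the count was 0 of 10 beside 1.02%, and 3 of 10 were below 0.05 unadjusted beside 11.6%. The DESeq2 Wald test called 0, 1 and 1 of the 10 in these comparisons, the one being Tiparp both times, and limma-voom called 0 in each.

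Groups whose libraries did not overlap were counted among the 10 genes and among all tested genes. KO lay wholly above WT for 2 of 10 (Arc and Tiparp), beside 3.25% of all tested genes, and wholly below WT for 0, beside 3.95%. KO lay wholly above HxD for 1 (Tiparp), beside 3.97%, and wholly below it for 1 (Ptgs2), beside 3.62%. HxD and WT overlapped for all 10, where 1.76% of all genes lay wholly higher in HxD and 1.72% wholly lower.

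The direction of the fitted differences varied between comparisons. Without Homer1, the median log2 fold change of the other 9 was 0.49 in HxD against WT, with 9 above 0 and a range of 0.15 to 1.36. It was 0.45 in KO against WT, with 6 above 0 (Arc, Nr4a1, Tiparp, Sik1, Nr4a3 and Btg2) and 3 below (Bdnf, Nptx2 and Ptgs2), and the range was -0.83 to 1.72. In KO against HxD it was 0.27, with 5 above and 4 below. Over all tested genes the medians were 0.01, 0.01 and 0.00, with 51.3%, 50.9% and 50.2% of genes above 0. Both comparisons with WT share the WT libraries, both with KO the KO libraries, and both with HxD the HxD libraries, so their values are not independent of each other.

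**Figure D2:**
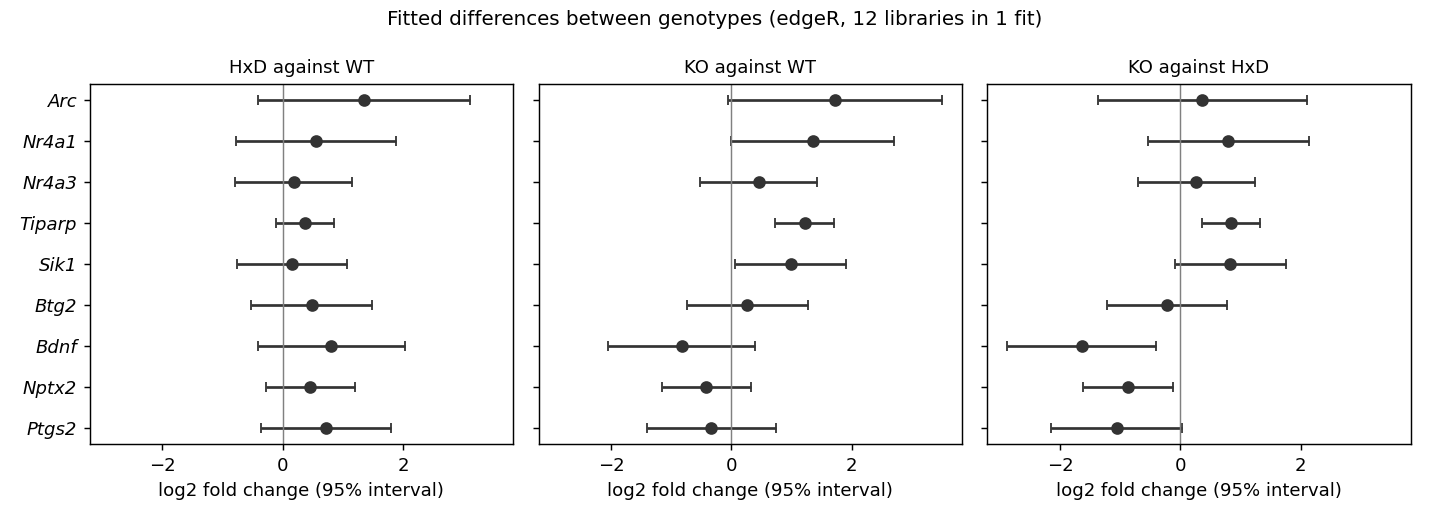
Fitted log2 fold change (horizontal axis) of 9 genes (vertical axis) in 3 comparisons, where points are edgeR estimates from 1 fit over 12 libraries and bars are 95% intervals. Intervals of Tiparp and Sik1 in KO against WT, and of Tiparp, Bdnf and Nptx2 in KO against HxD, leave out 0 before adjustment for the genes tested.

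Libraries of one genotype differed in most of these genes at once. Counting the 9 genes without Homer1, WT 3 was the lowest WT library for 6 and WT 4 for the other 3, and WT 1 and WT 2 were the highest for 4 each. HxD 4 was the highest HxD library for 7 of 9 and HxD 1 the lowest for 5. In KO, library 1 was the highest for 6 and library 4 the lowest for 7. The same ranking was not made for all tested genes, so it cannot show whether this is particular to the members. The median of the 9 genes' log2 values, each centred on its mean over all libraries, ran from -0.95 in WT 3 to 0.19 in WT 1, from -0.32 in HxD 1 to 0.84 in HxD 4 and from -0.44 in KO 4 to 0.85 in KO 1. The 3 ranges overlapped. This median is a description, and no test was made on it.

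The genes did not keep 1 order over libraries. HxD 2 had the second highest Arc level of the HxD libraries, 629 CPM, together with the lowest Bdnf and Nr4a3 levels of that genotype, 10.3 and 25.35 CPM. For Arc and Nr4a3 HxD 1 was the reverse, with the lowest Arc level at 57.3 CPM and the second highest Nr4a3 level at 81.3 CPM. Bdnf was not reversed there, at 19.7 CPM the second lowest of the HxD libraries. In KO 3 Arc and Btg2 were at their highest in KO, 778 and 92 CPM, while Tiparp, Nr4a1 and Nr4a3 were second to last of the 4.

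**Figure D3:**
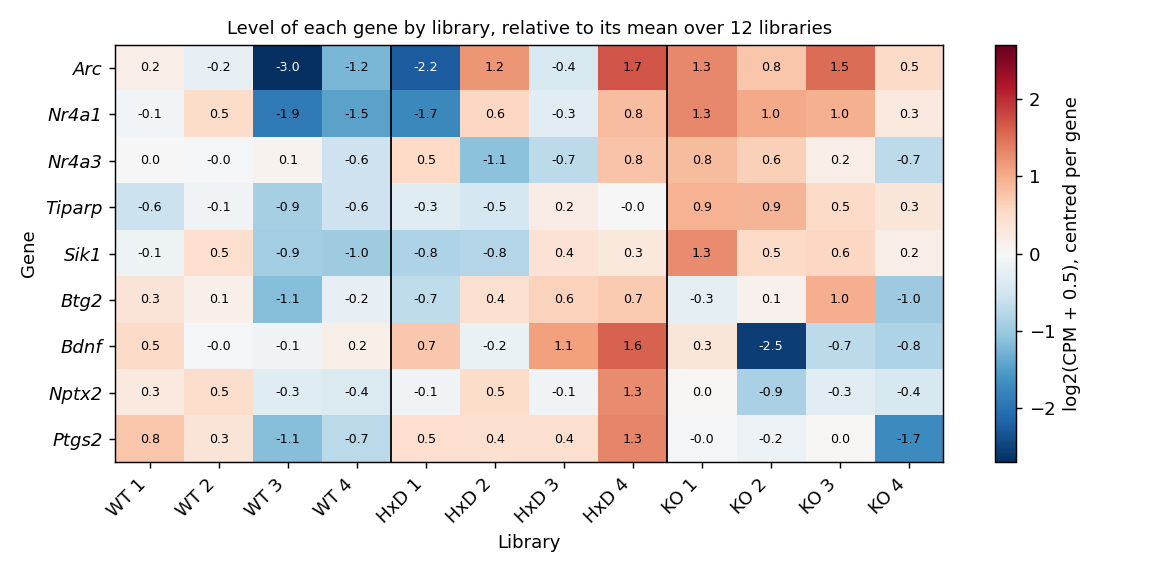
Level of 9 genes (rows) in 12 libraries (columns), as log2(CPM + 0.5) minus the gene's mean over the 12 libraries, with red above and blue below that mean. WT 3 is below the mean for 8 of the 9 genes and HxD 4 is above it for 8 of the 9, and HxD 1 and HxD 2 show Arc and Nr4a3 moving in opposite directions.

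The spread between libraries of the same genotype was wide for this group. The SD of log2(CPM + 0.5) within a genotype, pooled over the 3 genotypes, was 1.35 for Arc, 0.97 for Nr4a1, 0.83 for Bdnf, 0.75 for Ptgs2, 0.71 for Btg2 and 0.69 for Nr4a3. It was 0.61 for Sik1, 0.50 for Nptx2 and 0.31 for Tiparp, against a median of 0.34 over all tested genes. For 9 of the 10 genes the SD was above that median, and Arc stood at the 88.7th percentile of all tested genes. Tiparp, at the 46.9th percentile, varied least of the 10. Homer1 had an SD of 1.56, which reflects its values of 0.

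**Figure D4:**
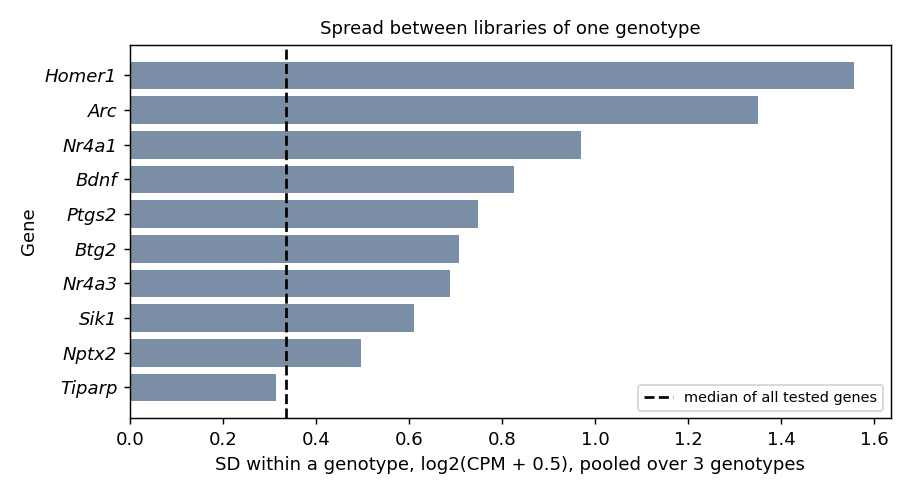
SD within a genotype of log2(CPM + 0.5), pooled over the 3 genotypes with 4 libraries each (horizontal axis), for the 10 genes (vertical axis), beside the median of all tested genes (dashed line, 0.34). Tiparp is the single gene below the line.

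Levels can be compared between genes only per length, here CPM per kb of the longest GENCODE M21 transcript. In WT the order of mean levels per kb was Arc (57.0), Nr4a1 (40.5), Nptx2 (33.2), Btg2 (15.6), Nr4a3 (9.06), Tiparp (5.32), Sik1 (5.24), Ptgs2 (4.54), Bdnf (3.08) and Homer1 last. Each neighbouring pair down to Bdnf overlapped between its 4 WT libraries, apart from Nptx2, at 24.5 to 44.3 CPM per kb, and Btg2, at 7.58 to 21.5. Arc alone, at 10.7 to 102, covered the range of Nr4a1, Nptx2 and most of Btg2. In KO the order began with Arc (188), Nr4a1 (103), Nptx2 (24.9) and Btg2 (18.7), and Arc and Nr4a1 overlapped narrowly, at 128 to 255 and 64.6 to 133 CPM per kb.

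Other genes of the pathway were counted from lists. Of 18 tested activity-induced transcription factors (AP-1, EGR and related), 0 passed edgeR in any comparison, and in KO against WT 3 were higher and 0 lower at an unadjusted p below 0.05 (beside 9.48% of all tested genes in either direction), with a median log2 fold change of 0.66. Fosl2, a partner in the AP-1 dimer, had 110 ± 33 CPM in KO and 65.4 ± 10.5 in WT (adjusted p = 0.482). Maff, a small Maf protein, held 24 to 53 counts per KO library and 0 to 18 per WT library (adjusted p = 0.385). All 20 factors of the list, tested or not, summed to 1757 to 2708 CPM in KO, 1340 to 3061 in HxD and 1349 to 2101 in WT.

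Of 27 other tested activity-induced effectors, Dusp1, a phosphatase that shuts off MAP kinases, was the single one called. All tested genes were called at 0.898% in HxD against WT, 0.154% in KO against WT and 1.02% in KO against HxD. At an unadjusted edgeR p below 0.05, 4 of the 27 were higher and 0 lower in KO than in WT, beside 9.48%. In HxD against WT 2 were higher and 1 lower, beside 4.05%, and in KO against HxD 2 and 2, beside 11.6%. Dusp1 was listed at 0 in all 4 HxD libraries, at 118 to 337 counts in WT and at 361 to 1006 in KO, and edgeR called it lower in HxD than in WT (adjusted p = 2.5e-04) and higher in KO than in HxD (adjusted p = 7.9e-05). In KO against WT it was not called (adjusted p = 0.144). Dusp1 was 1 of 15 genes listed at 0 in every HxD library with at least 10 counts in all 8 others, where 6 genes had this pattern for KO and 0 for WT. Whether the HxD libraries were quantified in the same way as the others is not given in the labels, so a difference of genotype and one of quantification cannot be told apart for Dusp1. The calls of Dusp1 were lost in 4 of 21 and 1 of 20 other settings. The list's median log2 fold change was 0.26 in HxD against WT, 0.18 in KO against WT and -0.05 in KO against HxD.

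No tested upstream regulator (18 of 28 listed), synaptic partner (19 of 20) or enzyme and receptor partner (19 of 25) passed edgeR. Creb1, which encodes CREB, held 0 to 6 counts per library in WT and 0 to 2 in HxD and KO, and was not tested. Furin, Ptges and Ahr were listed at 0 in all libraries, so nothing can be said of them. Among 18 tested upstream regulators, 4 were lower and 0 higher in KO than in WT at an unadjusted p below 0.05, which 9.48% of all tested genes passed. Prkaca, the catalytic subunit of protein kinase A, had 309 ± 32.8 CPM in WT and 262 ± 14.7 in KO (adjusted p = 0.354). Among 19 tested synaptic partners, 5 were lower and 1 higher at that level, beside the same 9.48%. Nptxr, the membrane receptor that joins pentraxin complexes with Nptx2, measured 1231 ± 383 CPM in WT and 658 ± 92.5 in KO (adjusted p = 0.244), and Dnm2, an endocytic dynamin that Arc binds, 12.3 ± 3.196 and 21.4 ± 3.34 (adjusted p = 0.257). Among 19 tested enzyme and receptor partners, a share near that background passed, 1 lower (Ptgs1, above) and 1 higher, namely Tob2, a relative of Btg2, with 40 ± 10.3 CPM in WT and 63.65 ± 3.185 in KO (adjusted p = 0.204).

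Glucocorticoid-induced genes had their highest summed level in KO. Of the members without values of 0, Arc, Tiparp, Nr4a1, Nr4a3 and Sik1 also had their highest means in KO, while Bdnf, Nptx2 and Ptgs2 had their lowest there and Btg2 its highest in HxD. Their 15 genes summed to 1619 to 2182 CPM in KO, above all WT libraries at 899.5 to 1266 and all HxD libraries at 869.7 to 1375. Among the 14 tested, Cebpd, a transcription factor, passed edgeR in KO against WT (WT 7.84 ± 1.45 CPM, KO 22.5 ± 3.89, adjusted p = 0.0453), and 9 were higher and 0 lower at an unadjusted p below 0.05 beside 9.48% of all tested genes. Tsc22d3, a hormone-induced leucine zipper protein, passed in KO against HxD (153 ± 44.3 CPM against 48.1 ± 17.6, adjusted p = 0.0397). These calls of Cebpd and Tsc22d3 were lost in 14 and 13 of 20 other settings each, with edgeR, DESeq2 or limma adjusted p up to 0.51 for Cebpd and 0.247 for Tsc22d3. The part of these genes' course in the members' values was not tested.

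Markers of other cell types were summed beside the members. The 8 oligodendrocyte genes summed to 3041 to 3609 CPM in KO, 1367 to 4014 in HxD and 1883 to 4493 in WT, and the 10 striatal genes, for tissue next to the cortex, to 293 to 441, 264 to 1132 and 405 to 676 in that order. The striatal sums of libraries 1 to 4 were 413, 426, 676 and 405 CPM in WT, beside centred member medians of 0.19, 0.13, -0.95 and -0.55. In HxD they were 564, 702, 1132 and 264 CPM beside -0.32, 0.42, 0.20 and 0.84, and in KO 441, 293, 304.5 and 375 CPM beside 0.85, 0.53, 0.52 and -0.44. The library with the highest striatal sum had the lowest member median in WT and the highest in KO. In HxD, the library with the lowest striatal sum, HxD 4, had the highest member median. Astrocyte genes (8) summed to 3851 to 4167 CPM in KO, 3134 to 3974 in HxD and 3099 to 3972 in WT, and inhibitory neuron genes (8) to 1696 to 2006, 1609 to 2116 and 1453 to 1913. Microglial genes (8, with Csf1r listed at 0 throughout) lay between 429 and 560 CPM in all groups, vessel genes (8, with Pecam1 at 0) between 157 and 216, and the 5 blood genes between 258 and 562. None of the striatal, oligodendrocyte, astrocyte, inhibitory neuron or blood markers was at 0 in all libraries. Their part in the members' values was not tested.

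The genes outside the 10 whose course over the 12 libraries was closest to the members' median were Sertad1, Gadd45b, Dio2, Egr4 and Dusp6. Their root mean square differences from that course were 0.26, 0.32, 0.32, 0.34 and 0.35 on the log2 scale, where the course itself has a root mean square of 0.56. Sertad1, the closest, averaged 29.1 CPM in KO, 21.9 in HxD and 15.7 in WT. For Arc alone the closest were Fos, Egr2, Cps1, Lmna and Arl4d, at 0.62, 0.74, 0.77, 0.78 and 0.82, with a root mean square of 1.45 for Arc itself. Fos averaged 113 CPM in KO, 90.03 in HxD and 59.3 in WT, and Cps1, at no more than 2.405 CPM in any library, was listed at 0 in 3.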

How the data were processed

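Poly(A) RNA of 12 cortex libraries was measured. The authors deposited 1 estimated count per table row and library, with rows named by gene symbol, without normalization and as whole numbers. FastQC, Trim Galore 0.6.7, STAR 2.7.1a, SAMtools 1.9, StringTie 2.2.3 and the builds GRCm39 and mm10 are named without role, per the submitters' processing notes. Read assignment, strand setting and filters were not given in the sources used here.

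From these counts, 25 symbols on several rows (56 rows) were left out, and CPM was computed on the summed counts of tested genes times TMM factors. Genes were tested two-sided by the quasi-likelihood method of edgeR 4.0.16 (R 4.3.3, robust fit) with filterByExpr by genotype (minimum count 10), which kept 11693 genes and all 10 members. A single model over the 12 libraries had genotype as its term (9 residual degrees of freedom), and Benjamini-Hochberg adjusted p-values over all tested genes were called below 0.05. The SE is the absolute log2 fold change divided by the square root of F, and 95% intervals use the moderated degrees of freedom. The scripts were tested on simulated data.

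Alternatives were DESeq2 1.42.0, limma-voom (limma 3.58.1), other size factors, other filters, fewer libraries, 1 surrogate variable (sva 3.50.0), a block for the replicate number and a threshold of 0.1. The 10 members are always named. From each other list of the pathway or of glucocorticoid response, up to 4 called genes are named, or the 2 with the smallest p in KO against WT, and the 5 genes closest to the members' median and to Arc are named too. A gene that this rule names among the upstream regulators is not reported here. Nr4a2, Creb1, the partners listed at 0 and the promoter examples were picked after values were seen. The members, lists, tests and rules were chosen with earlier results of these data known. Totals limit counting error only, since there were no molecular identifiers to tell molecules apart.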

Additional observations from a re-analysis of the deposited data

Results flagged for a closer look

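In each genotype the 4 libraries of every member were searched for one that stands far from the other 3 by a Dixon test. This held in 2 of 30 groups, and chance alone flags about 1 in 20. Homer1 in WT 4 was at 5.11 CPM while the other WT libraries were listed at 0. Beside 3 equal values any different value is flagged, so the share of 1 in 20 does not apply to Homer1. Ptgs2 in HxD 4 was at 51.1 CPM while HxD 1 to 3 lay at 27.4 to 27.8 CPM. Without HxD 4, the log2 fold change of Ptgs2 in KO against HxD went from -1.06 to -0.79.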

How the results depend on the processing

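The number of members called stayed at 0 in all 22 other settings of HxD against WT. It was 1, Tiparp, with the DESeq2 Wald test in KO against WT and in KO against HxD, and with an adjusted p threshold of 0.1 in KO against WT. Over all genes, DESeq2 called 172 genes in HxD against WT, 288 in KO against WT and 396 in KO against HxD, where edgeR called 105, 18 and 119. In KO against WT, limma-voom and the fit of the 8 libraries alone called 0 genes each, and the threshold of 0.1 called 33. Leaving out 1 library gave 91 to 97 genes in HxD against WT, 12 to 35 in KO against WT (35 without WT 4) and 97 to 110 in KO against HxD, with 0 members in each. The number of members with a spread above the median of all genes was 9 with a pseudocount of 1 too.

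Libraries of the same number did not deviate together (r between -0.07 and 0.08 over genes). Each library was set beside the 4 libraries of each other genotype, and its own number was the closest in 8 of 24 such cases. The replicate number as a block gave 74, 5 and 95 called genes in the 3 comparisons and 0 members.

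Sets of 2 libraries within WT and HxD (numbers 1 and 3, numbers 2 and 4) were examined after the data were seen. HxD against WT called 31 genes within numbers 1 and 3 and 7 within numbers 2 and 4, and KO against HxD called 180 with HxD 1 and 3 alone, where fewer samples were tested. Within numbers 1 and 3, the log2 fold changes in HxD against WT turned to -0.39 for Arc, -0.10 for Nptx2, -0.11 for Nr4a1 and -0.0044 for Nr4a3, and within numbers 2 and 4 that of Sik1 turned to -0.062. In KO against HxD, Arc turned to -0.40 with HxD 2 and 4 alone and Btg2 to 0.030 with HxD 1 and 3 alone.

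Among the 9 members with fold changes, direction turned in 11 of 189, 3 of 180 and 4 of 180 results of HxD and KO against WT and of KO against HxD, none of them called. In HxD against WT, leaving out WT 3, WT 4, HxD 3 or HxD 4 turned Sik1 to -0.018, -0.023, -0.078 and -0.016 (range over single libraries left out -0.078 to 0.51). Leaving out HxD 1 or HxD 4 turned Nr4a3 to -0.017 and -0.15 (range -0.15 to 0.43). In KO against WT, Ptgs2 turned to 0.049 with 1 surrogate variable and 0.032 without WT 1 (range -0.58 to 0.032), and Btg2 to -0.18 without KO 3 (range -0.18 to 0.49). In KO against HxD, Arc turned to -0.0020 without HxD 1 (range -0.0020 to 0.95) and Btg2 to 0.0039 without KO 4 (range -0.67 to 0.0039). The cause was not tested. All members' CPM changed by less than 1 SD with library size alone. KO held the 2 smallest totals, and Bdnf there rests on 12 to 86 counts.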
